A study of Mus musculus with 10 samples.

Results

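Matrix metalloproteases (MMPs), the related ADAMTS proteases, the ADAMTS-like proteins, papilin and the tissue inhibitors of metalloproteases (TIMPs) were examined in left ventricular RNA of mice with a diet- and pressure-induced model of HFpEF, heart failure in which ejection fraction is preserved. Genes were chosen by symbol (Mmp or Adamts followed by a digit, Adamtsl, Timp1 to Timp4 or Papln) and by an abundance above 0 TPM in at least 9 of the 10 mice. Of the 29564 genes listed, 52 symbols matched, 39 genes were kept as members, and all 39 were among the 13306 genes tested. They comprised 15 MMPs, 14 ADAMTS proteases, 5 ADAMTS-like genes, Papln and 4 TIMPs.

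The tissue came from 5 control mice (TT-583 to TT-587) and 5 with HFD+mTAC (TT-588 to TT-592), all wild-type C57BL6 males. HFD+mTAC mice were fed a high-fat diet with 60% of kilocalories from fat and had moderate transverse aortic constriction (mTAC), surgery at 11 weeks of age that constricts the aorta and puts a pressure load on the left ventricle, followed by 16 weeks of induction. Control mice were not operated on and ate chow with 10% of kilocalories from fat, so that diet and operation cannot be told apart here. The labels give vehicle as the treatment of all 10 mice, and state a dose of 10 mL/kg daily for 6 to 9 weeks for HFD+mTAC mice. Whether control mice were dosed in the same way is not given in the sources used here.

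MMPs and ADAMTS proteases are secreted or membrane-bound enzymes that cut extracellular matrix and are made as inactive precursors. Both families hold a zinc ion in the active site, bound by histidines of a short conserved stretch. TIMPs block the active site, whereas ADAMTS-like proteins and papilin share the noncatalytic domains of ADAMTS proteases, have no protease domain and lie in the matrix. In the heart, this system is known for the turnover of collagen and proteoglycans during remodeling.

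Sequences from the reference annotation show how the catalytic members differ from the others. The stretch sought, of 11 codons, encodes the motif HExxHxxxxxH and was found in 15 of 15 MMPs and 14 of 14 ADAMTS proteases, but in none of the other 10 members. The 33 bases are printed for enzymes named below, 5′ to 3′ on the coding strand, with the codons for the zinc-binding histidines and the catalytic glutamate in capitals.
Mmp2: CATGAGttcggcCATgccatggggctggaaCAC
Mmp9: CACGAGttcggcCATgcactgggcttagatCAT
Mmp3: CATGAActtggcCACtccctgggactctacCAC
Mmp12: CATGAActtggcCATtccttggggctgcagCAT
Mmp14: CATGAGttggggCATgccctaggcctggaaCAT
Adamts1: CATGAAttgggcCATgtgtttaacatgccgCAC
Adamts15: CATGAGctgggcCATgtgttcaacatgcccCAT
In GRCm38, these stretches lie at chr8:92839279-92839311 (Mmp2, plus strand), chr2:164951133-164951165 (Mmp9, plus), chr9:7449775-7449807 (Mmp3, plus), chr9:7352914-7352946 (Mmp12, plus) and chr14:54437627-54437659 (Mmp14, plus). All 15 MMPs carried the stretch within a single coding exon, which was exon 8 in the gelatinases Mmp2 and Mmp9 and exon 5 in Mmp3, Mmp12 and Mmp14. In all 14 ADAMTS genes an intron interrupted it, as in Adamts1 (chr16:85799191-85799545, minus strand, exons 3 and 4) and Adamts15 (chr9:30911255-30911690, minus strand, exons 2 and 3).

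Libraries held 34.2 to 53.7 M estimated counts, of which 12.6 to 21.1 M lay on the genes tested. Total counts did not differ detectably between the groups (two-sided exact permutation test, p = 0.444), nor did the share of mitochondrially encoded genes, which was 47.8% ± 3.57 in control and 50.1% ± 2.37 in HFD+mTAC mice (SD, n = 5 each, two-sided exact permutation test, p = 0.246). Levels of a gene are given as CPM, the count scaled to the library's total over the genes tested. That total was multiplied by a TMM normalization factor, which ranged from 0.959 to 1.05 over the mice. Log2 fold changes are HFD+mTAC over control with their standard error (SE). Adjusted p-values are from edgeR over all genes tested. Of 13306 genes, 9 passed an adjusted p of 0.05 (0.0676%), of which 0.0526% of all genes lay on the higher side and 0.015% on the lower. Of the 39 members, Papln alone did, as higher. DESeq2 on the same counts called 0.902% of all genes and 3 members, Papln, Adamtsl3 and Mmp3. At an unadjusted p under 0.05 stood 8.26% of all genes and 7 of the 39 members, 4 of them higher (background 4.39%) and 3 lower (background 3.87%) in HFD+mTAC mice. The groups did not overlap in CPM in 1.9% of all genes and in 4 members, of which Papln, Adamtsl3 and Mmp12 were higher (background 1.02%) and Mmp9 lower (background 0.879%) in HFD+mTAC mice. Of the members, 17 lay above 0 and 22 below, and of all genes 49.6% lay above 0. The median log2 fold change was -0.03 over the members and -0.0017 over all genes, and the median absolute value was 0.21 and 0.12.

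**Figure D1:**
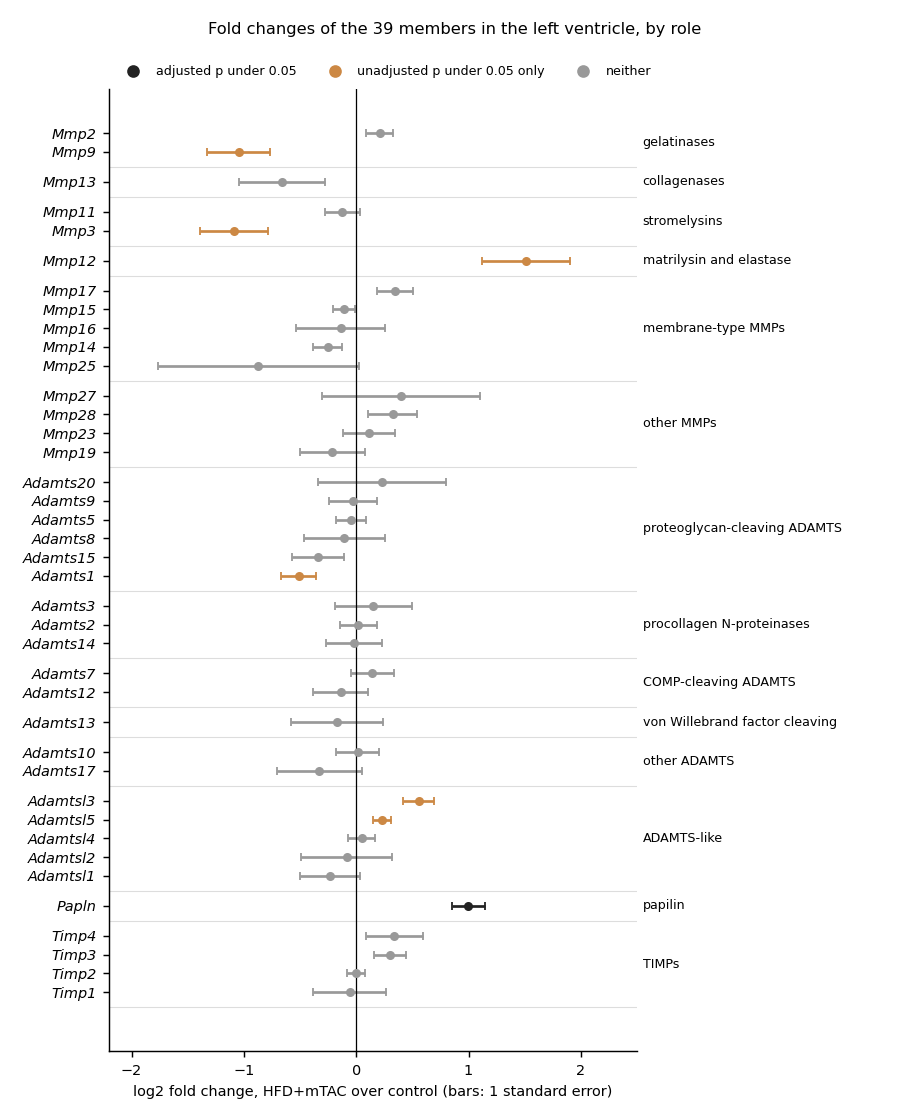
Log2 fold change of each of the 39 members (HFD+mTAC over control, points) with 1 standard error from edgeR (bars), grouped by role. Papln, at 1.00, is the member with an adjusted p under 0.05, and Mmp12 (1.51), Adamtsl3 and Adamtsl5 on the right and Mmp3 (-1.09), Mmp9 and Adamts1 on the left have only an unadjusted p under 0.05.

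By role, 11 of the 29 members with a zinc-binding stretch had a log2 fold change above 0 and 18 below, with 1 higher (Mmp12) and 3 lower (Mmp9, Mmp3, Adamts1) at an unadjusted p under 0.05. Of the 10 members without it, 6 lay above 0 and 4 below, with 3 higher (Papln, Adamtsl3, Adamtsl5) and 0 lower at that threshold. Of all genes, 4.39% were higher and 3.87% lower at it. Median log2 fold changes were -0.11 with the stretch and 0.14 without it, and whether the classes differed was not tested. With average transcript lengths in the fit, Adamtsl3 and Adamtsl5 fell to 0.0043 and 0.05. Papln, Mmp12 and Mmp9 also had values smaller in size, Mmp3 was nearly unchanged and Adamts1 was larger in size. The samples are whole tissue, in which fewer cells of a type cannot be told apart from less RNA per cell.

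Papln encodes papilin, a matrix glycoprotein with thrombospondin type repeats and protease inhibitor domains (chr12:83763634-83792382, GRCm38). Control mice held 14.5, 13.3, 13.7, 10.2 and 9.44 CPM and HFD+mTAC mice 23.6, 24.6, 23.0, 30.6 and 20.9 CPM. The groups did not overlap, on 121 to 302 counts in control and 301 to 451 counts in HFD+mTAC mice. Papln rose with a log2 fold change of 1.00 (SE 0.15, adjusted p = 0.0344 from edgeR). The rise depended on the scale. With average transcript lengths in the fit, the log2 fold change was 0.77 (adjusted p = 0.584 from edgeR), and on log2(TPM + 1) it was 0.48 (adjusted p = 0.610 from limma). On length-corrected TPM over the genes tested, the groups overlapped, at 0.69 to 1.72 in control and 1.66 to 3.02 in HFD+mTAC mice. Average effective lengths of Papln, the lengths by which counts are divided to give TPM, were 8729 to 14934 bases in control and 10872 to 15683 bases in HFD+mTAC mice, against 4373 bases in the longest annotated transcript. The log2 difference in length was 0.26 (adjusted p = 0.732 from limma). When any 1 mouse was left out, the log2 fold change stayed between 0.91 and 1.07, but the adjusted p was between 0.0518 and 0.0904 except without HFD+mTAC mouse TT-591 (0.0496).

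The ADAMTS-like genes encode matrix proteins, several of which bind fibrillin microfibrils. Adamtsl3 (chr7:82335694-82614450) measured 8.74, 10.7, 11.2, 10.2 and 13.2 CPM in control and 14.7, 19.2, 16.2, 16.1 and 13.2 CPM in HFD+mTAC mice. The groups just failed to overlap, as control mouse TT-587 (13.188 CPM) and HFD+mTAC mouse TT-592 (13.196 CPM) nearly met. The order of these mice depends on the TMM factor. The log2 fold change was 0.56 (SE 0.14, adjusted p = 0.254 from edgeR, 0.0290 from DESeq2) and was 0.0043 with lengths in the fit (adjusted p = 0.999). Adamtsl3 lengths spread from 2775 to 16671 bases among control mice alone. On TPM over the genes tested, the groups overlapped, at 0.71 to 4.03 in control and 1.07 to 4.62 in HFD+mTAC mice.

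Adamtsl5 (chr10:80339110-80348412) varied little, at 107, 114, 123, 119 and 117 CPM in control and 136, 129, 147, 118 and 150 CPM in HFD+mTAC mice. Only TT-591 of the HFD+mTAC mice lay within the control range. Its log2 fold change was 0.23 (SE 0.08, adjusted p = 0.464 from edgeR), or 0.05 with lengths in the fit. Adamtsl4, mutated in inherited lens dislocation, was at 47.1 to 74.6 CPM in control and 57.3 to 71.0 CPM in HFD+mTAC mice (log2 fold change 0.05). Adamtsl2, which is linked to geleophysic dysplasia and TGFβ availability, split the mice within both groups. Its CPM was 29.8, 35.0, 12.7, 10.6 and 9.05 in control and 11.9, 9.68, 27.2, 26.3 and 17.3 in HFD+mTAC mice, with a log2 fold change of -0.08 (SE 0.40) whose sign turned with the scale (0.14 with lengths in the fit). Summed over the 5 genes, control mice held 205 to 219 CPM and HFD+mTAC mice 224 to 258 CPM, which did not overlap, whereas summed TPM did (111 to 167 and 136 to 166). The mean sums were 213 CPM in control and 239 CPM in HFD+mTAC mice, of which Adamtsl5 alone held 116 and 136 CPM. Of the 5 genes, 3 had a log2 fold change above 0 and 2 below, and only Adamtsl3 did not overlap by CPM.

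**Figure D2:**
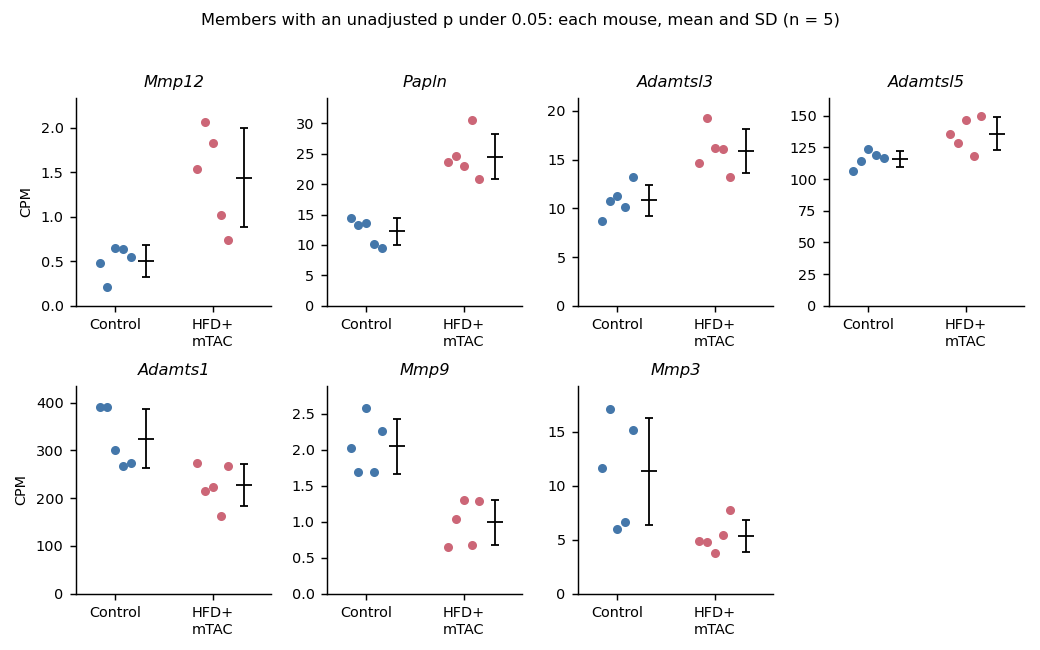
CPM of the 7 members with an unadjusted p under 0.05 in each mouse (points), with the mean and SD of each group (n = 5) beside them, each panel on its own axis from 0. Papln, Adamtsl3, Mmp12 and Mmp9 have no overlap between the groups by CPM, and Adamtsl5, Adamts1 and Mmp3 do.

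Among MMPs, 6 of 15 had a log2 fold change above 0 and 9 below (median -0.12), and none passed the adjusted threshold. At an unadjusted p under 0.05 stood 3 of the 15 (background 8.26%). Mmp12 encodes macrophage elastase, which cuts elastin. It measured 0.48, 0.21, 0.64, 0.63 and 0.55 CPM in control and 1.54, 2.07, 1.83, 1.02 and 0.74 CPM in HFD+mTAC mice. Every HFD+mTAC mouse was above every control mouse, but on 4 to 13 counts in control and 12 to 34 counts in HFD+mTAC mice. The log2 fold change of 1.51 (SE 0.39) was the largest of the members by size and had an adjusted p of 0.272 from edgeR. On TPM over the genes tested the groups overlapped, at 0.28 to 0.99 in control and 0.62 to 2.81 in HFD+mTAC mice. TT-589, the highest mouse by CPM, was the lowest of its group by TPM, with an effective length of 3529 bases against 680 to 795 in control mice. The log2 fold change was 1.22 with lengths in the fit (adjusted p = 0.636 from edgeR) and 0.65 on log2(TPM + 1) (adjusted p = 0.610 from limma). Summed macrophage markers (4 of 5 tested, 2 of them above and 2 below 0) were 137 to 199 CPM in control and 148 to 195 CPM in HFD+mTAC mice, and their part in the Mmp12 values was not tested.

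Mmp9 encodes gelatinase B, an enzyme stored in granules of neutrophils. It was at 2.02, 1.68, 2.57, 1.69 and 2.26 CPM in control and 0.64, 1.03, 1.30, 0.68 and 1.29 CPM in HFD+mTAC mice. All HFD+mTAC mice were below all control mice, on 10 to 52 counts per mouse. The log2 fold change was -1.05 (SE 0.28, adjusted p = 0.286 from edgeR), or -0.48 with lengths in the fit (adjusted p = 0.869) and -0.19 on log2(TPM + 1) (adjusted p = 0.913 from limma). On TPM over the genes tested the groups overlapped, at 0.48 to 1.58 in control and 0.30 to 1.78 in HFD+mTAC mice, and TT-592 was the highest of all 10 mice. The neutrophil markers S100a8 and S100a9 were the 2 of 6 that could be tested, Elane was at 0 in every mouse and Ly6g and Camp did not exceed 3 counts. Summed neutrophil markers were 5.38 to 8.26 CPM in control and 0.85 to 7.67 CPM in HFD+mTAC mice, where TT-592 held the highest sum. S100a9 had a log2 fold change of -1.11 (adjusted p = 0.522 from edgeR). The part of neutrophils in the Mmp9 values was not tested. Mmp2, gelatinase A, which fibroblasts make constitutively, was at 48.9 to 73.5 CPM in control and 61.1 to 77.8 CPM in HFD+mTAC mice (log2 fold change 0.21, SE 0.12, adjusted p = 0.693 from edgeR).

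Mmp3 encodes stromelysin 1, which cuts proteoglycans and activates other MMPs. Its CPM was 11.7, 17.2, 5.99, 6.63 and 15.2 in control and 4.88, 4.81, 3.74, 5.43 and 7.73 in HFD+mTAC mice. Control mice fell into higher and lower values, and HFD+mTAC mouse TT-592 lay above the 2 lowest of them. The log2 fold change was -1.09 (SE 0.30), with an adjusted p of 0.297 from edgeR and 0.0381 from DESeq2, and it was -1.08 with lengths in the fit. Collagenase 3 (Mmp13) had a log2 fold change of -0.66 at 0.27 to 1.39 CPM (adjusted p = 0.707 from edgeR).

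These genes are neighbours. The rule's symbols included 10 MMP genes between positions 7272514 and 7699585 of chromosome 9, a stretch of 427 kb, and 4 of them were members. In order along the chromosome, log2 fold changes were -0.66 (SE 0.38) for Mmp13, 1.51 (SE 0.39) for Mmp12, -1.09 (SE 0.30) for Mmp3 and 0.40 (SE 0.71) for Mmp27. Mmp27 rested on 31 counts over the 10 mice, and the sign of its value is not determined. Mmp1a, Mmp1b, Mmp7, Mmp10 and Mmp20 had 0 counts in every mouse, and neutrophil collagenase (Mmp8) had at most 7. Mmp12 and Mmp1b overlap on opposite strands.

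Promoter windows of 300 bases, from 250 before to 50 after the transcription start in RefSeq (GRCm38.p6), were found for 28 of the 39 members. Members that differ in direction follow, 5′ to 3′, with matches of TGANTCA, a motif bound by AP-1 factors and read the same on both strands, in capitals.
Papln: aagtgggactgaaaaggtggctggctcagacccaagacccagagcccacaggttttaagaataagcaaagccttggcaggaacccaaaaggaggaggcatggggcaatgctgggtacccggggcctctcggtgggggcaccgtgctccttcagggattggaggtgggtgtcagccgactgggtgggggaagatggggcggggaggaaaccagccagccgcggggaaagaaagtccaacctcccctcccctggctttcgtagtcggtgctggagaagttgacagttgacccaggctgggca
Adamtsl3: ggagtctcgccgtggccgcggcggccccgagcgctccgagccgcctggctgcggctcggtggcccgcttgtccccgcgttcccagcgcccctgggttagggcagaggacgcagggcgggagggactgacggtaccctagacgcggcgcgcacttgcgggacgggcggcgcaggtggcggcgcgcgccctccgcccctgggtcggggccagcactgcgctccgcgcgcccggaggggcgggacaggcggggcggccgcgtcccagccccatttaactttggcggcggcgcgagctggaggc
Mmp12: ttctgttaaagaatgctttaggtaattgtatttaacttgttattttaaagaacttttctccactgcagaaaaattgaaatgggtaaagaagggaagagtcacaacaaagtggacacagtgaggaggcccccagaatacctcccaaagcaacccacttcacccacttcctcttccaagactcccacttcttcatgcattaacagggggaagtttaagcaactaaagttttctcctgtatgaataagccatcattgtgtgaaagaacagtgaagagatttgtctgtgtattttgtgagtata
Mmp3: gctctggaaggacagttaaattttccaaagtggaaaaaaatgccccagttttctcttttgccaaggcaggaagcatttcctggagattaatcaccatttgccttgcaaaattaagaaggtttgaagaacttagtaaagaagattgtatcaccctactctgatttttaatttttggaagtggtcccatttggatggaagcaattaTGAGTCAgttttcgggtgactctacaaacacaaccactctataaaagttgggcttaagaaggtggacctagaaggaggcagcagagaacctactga
The windows are chr12:83763384-83763683 (Papln), chr7:82335444-82335743 (Adamtsl3), chr9:7344147-7344446 (Mmp12) and chr9:7445572-7445871 (Mmp3), all on the plus strand. Their GC contents were 61.0%, 78.7%, 38.7% and 40.0%. The motif stood at -46 in Mmp3, at -35 in Mmp13, and at -44 of another start of Mmp12, which is not printed. Adamts1, which was lower in HFD+mTAC mice, and Adamtsl5, which was higher, had no match in their windows, which are not printed. Their GC contents were 64.7% and 72.0%. Counting 1 window per gene, 2 of 28 members (7.14%) held the motif, against 2565 of 32851 windows in the table (7.81%).

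Membrane-type MMPs act at the cell surface. Mmp14, which activates the Mmp2 precursor, was at 21.4 to 31.2 CPM in control and 17.9 to 24.5 CPM in HFD+mTAC mice (log2 fold change -0.26, SE 0.13, adjusted p = 0.660 from edgeR). Mmp17 was at 4.11 to 6.37 and 5.46 to 6.99 CPM (log2 fold change 0.34, SE 0.16, adjusted p = 0.609 from edgeR). Mmp15 was at 142 to 207 and 158 to 178 CPM (log2 fold change -0.11, SE 0.10). Mmp25, a protease of leukocytes, was near the limit of detection, with 1 to 24 counts in control and 0 to 10 in HFD+mTAC mice. Its log2 fold change of -0.87 (SE 0.90) became 0.0017 without control mouse TT-583. Mmp28, epilysin, had a log2 fold change of 0.32 (SE 0.22, adjusted p = 0.764 from edgeR).

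Among ADAMTS proteases, 5 of 14 lay above 0 and 9 below, with a median log2 fold change of -0.04. Adamts1 cuts aggrecan and versican and had the highest TPM of them (chr16:85793827-85803113). Control mice held 391, 391, 302, 267 and 273 CPM and HFD+mTAC mice 273, 215, 223, 163 and 266 CPM. TT-583 and TT-584 were the highest of the control mice, and of the HFD+mTAC mice only TT-588 lay within the control range by CPM. TT-592 lay just below that range, at 266.3 CPM against 266.7 CPM in control mouse TT-586, an order that depends on the TMM factor. The log2 fold change was -0.51 (SE 0.16, adjusted p = 0.350 from edgeR) and, with lengths in the fit, -0.59 (adjusted p = 0.559). Control mice TT-583 and TT-584 had the lowest mitochondrial shares, 43.8% and 44.0%. With each of the 10 mice left out in turn, the log2 fold change stayed between -0.58 and -0.41.

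The other proteoglycan-cleaving ADAMTS members, Adamts5, Adamts8, Adamts9, Adamts15 and Adamts20, had log2 fold changes from -0.34 (Adamts15, SE 0.23, adjusted p = 0.777 from edgeR) to 0.23 (Adamts20). Procollagen N-proteinases (Adamts2, Adamts3 and Adamts14), which trim fibrillar procollagens, ranged from -0.02 to 0.15. Adamts13 cleaves von Willebrand factor. It was at 8.07, 7.27, 5.49, 3.10 and 20.99 CPM in control and 5.84, 8.58, 10.4, 5.56 and 9.27 CPM in HFD+mTAC mice. Control mouse TT-587 stood apart, and without it the log2 fold change of -0.17 became 0.40. Adamts4, an aggrecanase, was not a member, since it was above 0 TPM in 7 mice. Its counts were 89, 133, 23, 0 and 16 in control and 20, 10, 0, 0 and 19 in HFD+mTAC mice.

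TIMPs are small secreted proteins that bind MMPs and some ADAMTS proteases. Timp3, which binds to matrix and inhibits several ADAM and ADAMTS enzymes as well, measured 566, 770, 720, 747 and 819 CPM in control and 672, 754, 1020, 1082 and 929 CPM in HFD+mTAC mice. TT-590, TT-591 and TT-592 were above every control mouse and the other two were within the control range. Its log2 fold change was 0.30 (SE 0.14, adjusted p = 0.609 from edgeR). Timp4, the TIMP known for its cardiac expression, varied within groups, from 49.7 to 92.8 CPM in control and 50.6 to 136 CPM in HFD+mTAC mice (log2 fold change 0.34, SE 0.25, adjusted p = 0.793 from edgeR). Timp2, which also takes part in the activation of the Mmp2 precursor, varied least of the TIMPs relative to its level, at 134 to 165 CPM in control and 140 to 168 CPM in HFD+mTAC mice (log2 fold change -0.0026, SE 0.08).

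Timp1, which is induced in many fibrotic tissues, did not separate the groups. Control mice held 3.51, 5.42, 1.93, 4.16 and 3.82 CPM and HFD+mTAC mice 3.21, 1.83, 6.18, 3.80 and 3.13 CPM (log2 fold change -0.06, SE 0.33, adjusted p = 0.982 from edgeR). By TPM over the genes tested, Timp3 made up 60.03% of the TIMP sum on average over the 10 mice, Timp2 26.2%, Timp1 7.43% and Timp4 6.35%. The Timp1 share rests on an average effective length of 301 to 805 bases. In the annotation, Timp1 lies within Syn1, Timp3 within Syn3 and Timp4 within Syn2, in each case on the opposite strand, and the library kit keeps the strand. Timp2 overlaps Cep295nl on its own strand, where the division of reads between the genes is uncertain.

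**Figure D3:**
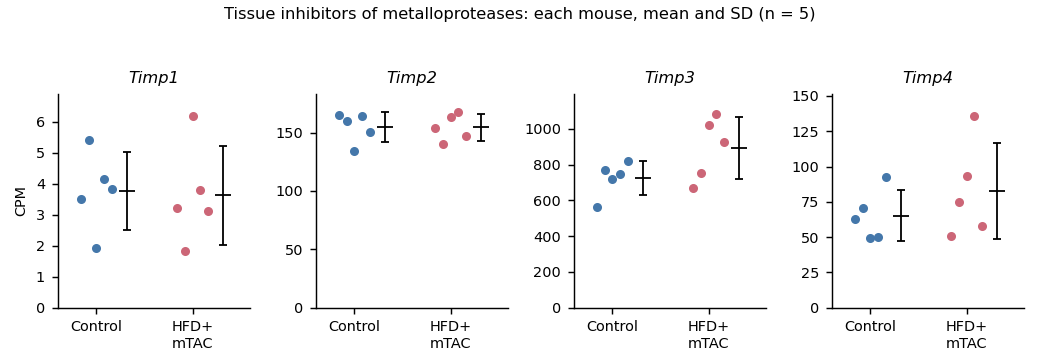
CPM of Timp1, Timp2, Timp3 and Timp4 in each mouse (points) with the mean and SD of each group (n = 5), each panel on its own axis from 0. The groups overlap in all 4 genes, and Timp3 reaches 1082 CPM in HFD+mTAC mice against 819 CPM at most in control mice.

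The sums of TPM over TIMPs and MMPs were set against each other as a description. TIMPs summed to 120 to 146 (median 121) in control and 118 to 182 (median 147) in HFD+mTAC mice, and MMPs to 42.7 to 75.3 (median 49.1) and 36.7 to 56.6 (median 51.9). The ratio was 1.61 to 2.81 (median 2.44) in control and 2.38 to 3.80 (median 2.98) in HFD+mTAC mice, with overlap. ADAMTS proteases summed to 61.2 to 108 and 55.9 to 75.7. Over all 39 members the sum was 363 to 448 in control and 348 to 449 in HFD+mTAC mice.

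Levels between genes were compared by TPM over the genes tested, which is corrected for length. The mean over the 10 mice was 102 for Adamtsl4, 82.7 for Timp3, 48.0 for Adamts1, 35.3 for Timp2, 26.1 for Adamtsl5, 12.9 for Mmp2, 12.8 for Adamtsl2 and 12.1 for Mmp15, and the last 3 did not differ beyond their spread. This order rests on the deposited lengths. Adamtsl4 had an average effective length of 665 bases against 4036 in its longest annotated transcript, and by counts per base of the annotated transcript, an order added after the data were seen, it ranked 7 and Timp3 ranked 1. Adamtsl2 moved from rank 7 to 20, and Mmp15 from 8 to 4. The average effective length exceeded the longest annotated transcript in 26 of 39 members and was under 0.5 times that length in 4, with ratios from 0.165 for Adamtsl4 to 3.07 for Mmp15 and a median of 1.28. Annotated transcripts here are those of GENCODE M21, whereas the paper names a later release for its quantification. Lengths differed between the groups in 0 of 39 members at an unadjusted p under 0.05 and in 3.57% of the 13195 genes with a length tested, and no gene passed the adjusted threshold (limma).

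**Figure D4:**
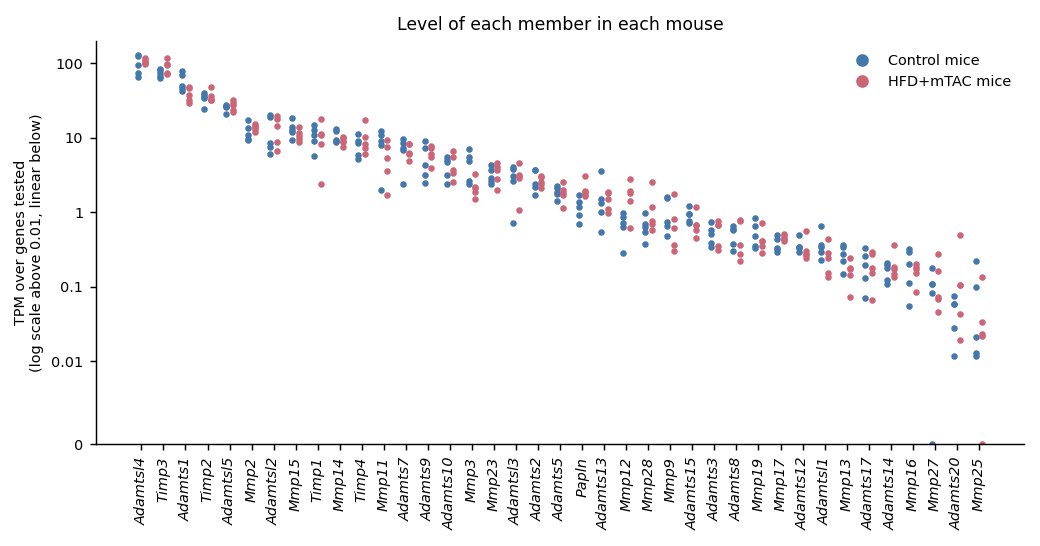
TPM over the genes tested of each of the 39 members in each of the 10 mice (points, by group), sorted by the mean, on an axis that is logarithmic above 0.01 and linear below. Adamtsl4 and Timp3 are at the left end, with means of 102 and 82.7, and Mmp25 and Mmp27 at the right end reach 0 in 1 mouse each.

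**Figure D5:**
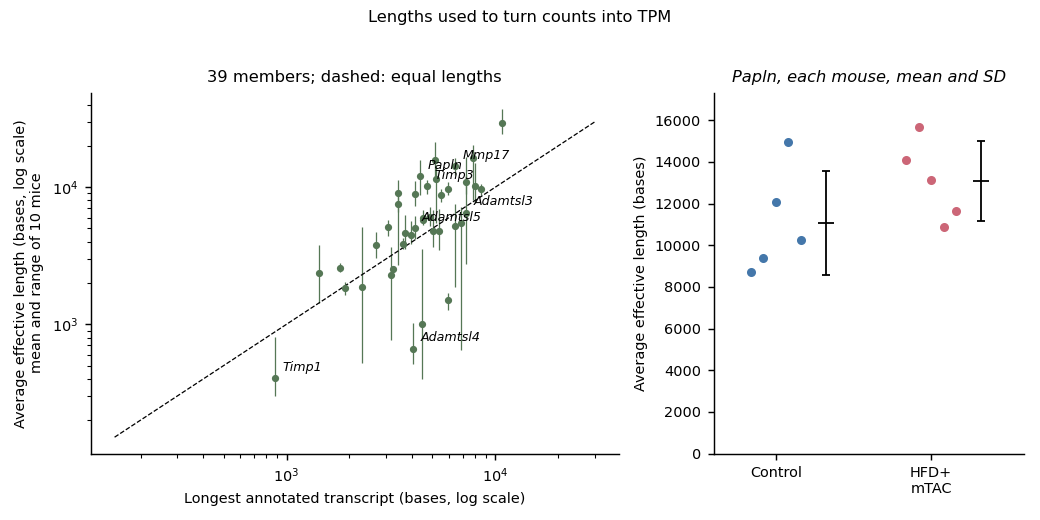
Average effective length against the length of the longest annotated transcript for the 39 members (left, both axes logarithmic, mean with the range over 10 mice, dashed line for equality), and the effective length of Papln in each mouse with mean and SD (right, n = 5 per group). Adamtsl4 lies far below the line, and Papln lengths overlap between the groups, at 8729 to 14934 and 10872 to 15683 bases.

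The 17 members outside the rule for named genes had log2 fold changes between -0.33 and 0.40 and adjusted p-values of at least 0.886 from edgeR, at mean levels of 0.196 to 52.7 CPM. Of all members, 32 had a mean of at least 1 CPM and 7 were below. Among the 13 symbols that were not members, 6 were at 0 in every mouse and the highest count was 133, in Adamts4.

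Other genes of the system were taken from hand-written lists, in which Dcn and Comp are also fibroblast markers. Of 22 substrates, 20 were tested, 6 were above and 14 below 0, and 1 was lower at an unadjusted p under 0.05 (background 3.87%). This was Fbn2, which encodes fibrillin 2, at 1.63 to 2.96 CPM in control and 0.75 to 1.66 CPM in HFD+mTAC mice (log2 fold change -0.93, adjusted p = 0.391 from edgeR). Fibronectin (Fn1) and versican (Vcan), the next by p, had log2 fold changes of 0.19 and -0.23. Of 23 activators, inducers, clearance receptors and other inhibitors, 20 were tested, and 14 were above and 6 below 0. Of these, 4 were higher (background 4.39%) and 1 lower (background 3.87%) at an unadjusted p under 0.05. Pcolce2, an enhancer of procollagen C-proteinase, had a log2 fold change of 0.41 (adjusted p = 0.297 from edgeR). Tll2, a tolloid-like protease, had a log2 fold change of 1.25 (SE 0.44, adjusted p = 0.456 from edgeR). Its levels overlapped, at 0.34 to 1.27 CPM in control and 1.10 to 4.08 CPM in HFD+mTAC mice. Mouse TT-589 was the highest, and the next HFD+mTAC mouse was at 1.98 CPM. All 10 ADAM proteases were tested, 6 lay above and 4 below 0, and none had an unadjusted p under 0.05 in edgeR. The lowest p-values among them were those of Adam19 (log2 fold change -0.49), Adam12 (0.57) and Adam22 (-0.34).

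Markers of the cell types that make these proteins are given beside the members. Summed fibroblast markers (6 of 6 tested) were 1576 to 1898 CPM in control and 1634 to 2189 CPM in HFD+mTAC mice, and those of activated fibroblasts (3 of 3) 48.6 to 92.2 and 58.5 to 105 CPM. Endothelial markers (5 of 5) were at 1489 to 1870 and 1508 to 2099 CPM, and those of smooth muscle and pericytes (5 of 6) at 2209 to 2761 and 2140 to 3029 CPM. Mesothelial markers were at 12.8 to 27.3 and 12.8 to 21.7 CPM, atrial markers at 2.31 to 5.23 and 2.21 to 2.95, Schwann cell markers at 10.0 to 17.8 and 9.37 to 11.9, blood markers at 127 to 1505 and 141 to 1528, and adipocyte markers, none of which passed the filter, at 0.16 to 3.28 and 0.06 to 2.14. All of these ranges overlapped between the groups. The 5 cardiomyocyte markers, which define the labelled tissue, summed to 54226 to 57878 CPM in control and 44576 to 51612 CPM in HFD+mTAC mice. These sums did not overlap, whereas each of the 5 genes by itself did. All 5 log2 fold changes were below 0, from -0.25 to -0.20. At an unadjusted p under 0.05 stood 2 of the 5 (background 3.87% lower), and the smallest adjusted p was 0.576 from edgeR. CPM is a share of the library after TMM scaling, and the part of the cardiomyocyte markers' difference in the members' values was not tested.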

How the data were processed

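Left ventricular RNA of 5 control and 5 HFD+mTAC mice was analyzed, grouped by the sample titles. Per the paper's methods, libraries came from a stranded mRNA kit and reads were trimmed with fastp and quantified with Salmon (1.6.0, also named in the submitters' processing notes) with sequence, GC and position bias correction on GENCODE transcripts of GRCm38. The same notes name the human build hg38 for these mouse samples, whereas the deposited symbols are those of mouse genes. The read layout differs between the paper and the labels and was not checked. The authors deposited estimated counts per gene (expected counts, summed with tximport, not normalized, 20.07% of values not whole), TPM values (length-corrected abundances on a common scale per mouse) and the average effective length of each gene in bases. TPM values were rescaled here over the genes tested. Of the gene symbols, 27862 matched the GENCODE M21 annotation directly and 802 were not matched. Annotated transcript lengths are also from M21, and the paper names a later GENCODE release for the quantification.

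Genes were tested when protein-coding, not mitochondrial and with at least 1 count in 9 of 10 mice. Rounded counts entered edgeR 4.0.16 under R 4.3.3 (TMM, quasi-likelihood, Benjamini-Hochberg, adjusted p under 0.05, no covariate, common dispersion 0.0423). Log2 effective lengths were tested with limma 3.58.1. Depth was 34.2 to 53.7 M counts per mouse, and the labels do not say whether mice shared a cage or a day. Within each group, chi-square per degree of freedom between libraries was at least 12.9, so no library was a repeat of another. Alternatives were DESeq2 1.42.0, other normalizations and filters, all genes, lengths as an offset, the robust test, limma on log2(TPM + 1) or log2(TPM + 0.1) and the omission of each mouse. The scripts were tested on simulated data. Single values were compared by two-sided exact permutation tests over 252 arrangements, whose smallest p is 0.00794.

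The members and lists were chosen with earlier results of these data known. Named members are those with an adjusted p under 0.05 or without overlap, the 8 with the smallest p in each direction, the 8 with the highest TPM, the 4 with the largest spread among those of at least 1 CPM, Papln, the TIMPs, Mmp2, Mmp9, Mmp14 and Mmp17. In other lists the 3 genes with the smallest p are named. A gene that this rule selects is not reported here. Other members are named with ranges for their role or position.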

Additional observations from a re-analysis of the deposited data

Results flagged for a closer look

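The level of the highest and lowest mouse was compared with the others of its group in 48 groups of 5 mice, of which chance alone singles out about 1 in 20. In HFD+mTAC mice, Mmp25 stood apart in TT-590, at 0.763 CPM on 10 counts, whereas the other mice of the group lay between 0 and 0.193 CPM. In control mice, Adamts13 stood apart in TT-587, at 20.99 CPM on 269 counts, whereas the others lay between 3.10 and 8.07 CPM.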

How the results depend on the processing

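The number of members with an adjusted p under 0.05 was 1 with TMM, DESeq2's size factors and upper-quartile normalization, with either other filter, with all genes and with the robust test. It was 3 with DESeq2, 0 with limma on log2(TPM + 1), 0 with limma on log2(TPM + 0.1) and 0 with lengths as an offset, and 0 to 1 when mice were left out in turn. The cause was not tested. Papln, the member called, had adjusted p-values from 4.3e-07 (DESeq2) to 0.651 over the alternatives. The number of members above 0, which was 17, ranged from 15 to 22 when mice were left out in turn.

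Over 22 named members, 437 values were computed under alternatives, of which 399 kept direction and side of the threshold, 12 lost the call (all Papln), 2 gained it (Adamtsl3 and Mmp3 with DESeq2) and 24 changed sign, in 6 genes with fold changes near 0 or low counts. Timp2 was at 0.0076 with upper-quartile normalization, 0.076 with limma on log2(TPM + 1), 0.079 on log2(TPM + 0.1) and 0.041 with lengths as an offset. Adamts13 was at 0.0041 and 0.075 with limma at the larger and smaller pseudocount. Adamtsl2 was at 0.18 and 0.20 in the same fits and at 0.14 with lengths as an offset. When mice were left out in turn, log2 fold changes ranged from -1.88 to 0.0017 for Mmp25, -0.39 to 0.40 for Adamts13, -0.036 to 0.13 for Adamtsl4, -0.26 to 0.23 for Adamtsl2, -0.33 to 0.12 for Timp1 and -0.050 to 0.037 for Timp2.

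No member had a changed effective length (adjusted p under 0.05, limma) in any alternative run. No paired analysis was possible because the numbers in the labels name single mice and no number occurs in both groups. Members with few counts, such as Mmp12, Mmp13, Mmp25 and Mmp27, are limited by depth.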
